A study of Homo sapiens with 6 samples.

Results

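The 8 genes H6PD, PGLS, PGD, RPIA, RPE, TKT, TKTL1 and TALDO1 encode enzymes of the pentose phosphate pathway, and their transcripts were compared between hypoxia and normoxia in MM1S, a human line grown from multiple myeloma, the cancer of antibody-secreting plasma cells. The members were all rows of the deposited table that carried one of these symbols alone, which gave 22 of 54613 probe sets, a probe set being a group of short probes read as 1 value. Total RNA came from cells of this 1 line in normoxia on 3 single-colour arrays and in hypoxia for 24 h on 3 arrays, with replicates numbered 0 to 2 in each group. The oxygen concentration and the handling of the normoxia cells are not given in the sources used here, and the treatment text is the same on all 6 arrays. Nothing in the labels says that replicates came from separate cultures, and p-values then cover only the variation among these samples, which may be technical. The RNA is that of whole cultures, so a change in every cell and a change in part of the cells cannot be told apart.

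The pentose phosphate pathway branches off glycolysis at glucose 6-phosphate. Its oxidative branch makes NADPH, which feeds biosynthesis and antioxidant defence, and turns the hexose into ribulose 5-phosphate. Its non-oxidative branch interconverts that pentose with ribose 5-phosphate, the sugar of nucleotides, and with the glycolytic intermediates fructose 6-phosphate and glyceraldehyde 3-phosphate, in reactions that run in either direction. Here H6PD, PGLS and PGD made up the oxidative branch with 11 probe sets, and RPIA, RPE, TKT, TKTL1 and TALDO1 the non-oxidative branch with 11.

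The array medians were 55.78, 54.95 and 56.77 in normoxia and 57.59, 59.79 and 60.13 in hypoxia. Every hypoxia median was thus above every normoxia median. Values were used as deposited, and median centring was an alternative. A level above the array medians is used below only to mark probe sets that are not dim. Without detection calls, a dim value cannot be told from background. Pearson correlations between arrays, taken across probe sets that are not independent of each other, were 0.988 to 0.993 within groups and 0.962 to 0.968 between groups. All 10 plasma cell and myeloma markers measured, SDC1, CD38, TNFRSF17, IRF4, PRDM1, XBP1, MZB1, SLAMF7, MAF and ITGB7, lay above the median on all arrays, 1 having risen and 4 fallen. Their summed intensity was 62370 to 64534 in normoxia and 64600 to 67024 in hypoxia. That sum includes MAF, the marker that rose, from 7717 ± 216 to 12186 ± 183, while SDC1, CD38, MZB1 and SLAMF7 fell. Of 18 measured markers of other cell types (mature B, T, myeloid, epithelial, fibroblast and erythroid), 6 lay above it, and of the 18 markers 3 rose and 2 fell. The brightest was a haemoglobin gene, HBB, which fell from 1751 ± 128 to 1126 ± 27.7 (SD, n = 3). The other markers that passed, as log2 changes, were the B cell genes MS4A1 at -1.67 and PAX5 at 1.65, the epithelial gene EPCAM at 1.03 and the T cell gene CD3D at 0.38. The part of these markers in the results was not tested. The hypoxia-response genes HILPDA, NDRG1, VLDLR and P4HA1 rose, in accord with the labels, with a summed intensity of 3552 to 3596 in normoxia and 21428 to 21924 in hypoxia.

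The pathway did not move as a block. Transcripts of RPIA fell 3.52-fold, those of TKT and H6PD rose, 2 of the 4 probe sets of RPE fell, and no probe set of PGLS, PGD, TKTL1 or TALDO1 passed the test. Of the 22 probe sets, 5 rose, 3 fell and 14 did not pass an adjusted p of 0.05 (limma, Benjamini-Hochberg adjustment over all probe sets). Over the whole table, 30.7% of probe sets passed, 15.5% upward and 15.2% downward. Among the 16 member probe sets above the median on all arrays, the 8 calls compare with a share of 53.1% among all probe sets at such levels, so the share of members called is near the background (25.8% of the latter rose and 27.3% fell). The groups did not overlap for 13 of the 22 member probe sets, against 42.5% of all probe sets, and for 12 of the 16 above the median, against 68.6%. Changes below were taken on the scale of log2(intensity + 16), hypoxia less normoxia, and are understated for dim probe sets, and levels are intensities as mean ± SD (n = 3 arrays per group).

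**Figure D1:**
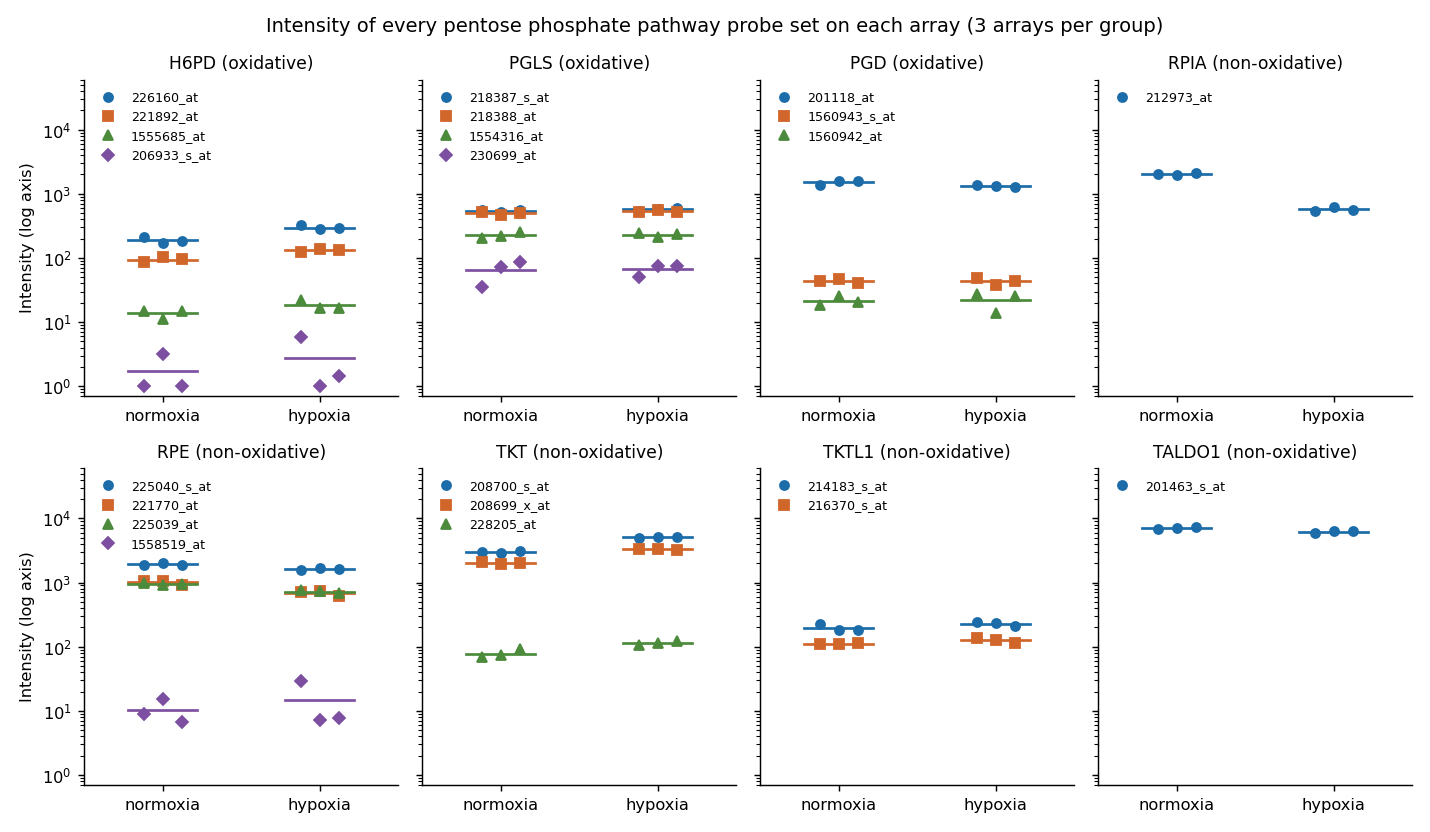
Each panel shows 1 gene, with the intensity on a log axis, a point for each array, a colour and marker for each probe set and a horizontal line at the mean of the 3 arrays. The single probe set of RPIA drops from 2008 to 570.2, all 3 probe sets of TKT lie higher in hypoxia, and no probe set of PGLS or PGD passed the test.

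In the oxidative branch the largest change was that of H6PD. This gene encodes the dehydrogenase of the endoplasmic reticulum, which carries out the opening steps of the branch inside that compartment and supplies it with NADPH. Its brightest probe set, 226160_at, was at 211, 174 and 187 in normoxia and at 321, 279 and 293 in hypoxia. Every hypoxia array lay above every normoxia array. The means were 191 ± 18.9 and 298 ± 21.3, a log2 change of 0.60 (95% confidence interval 0.36 to 0.84, limma adjusted p = 0.00484). A second probe set, 221892_at, read 85.9, 102 and 95.5 in normoxia and 126, 137 and 134 in hypoxia, again without overlap (log2 change 0.43, limma adjusted p = 0.0108). The other two, 1555685_at and 206933_s_at, were dim on all arrays, at 18.4 or less on average in either group, and did not pass (log2 changes of 0.21 and 0.07). Averaged over its 4 probe sets, H6PD rose by 0.33 (limma adjusted p = 0.0104 over genes).

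PGLS encodes the lactonase that opens the ring of 6-phosphogluconolactone between the dehydrogenase steps. None of its 4 probe sets passed, and their log2 changes lay between 0.03 and 0.09. The brightest, 218387_s_at, was at 559, 514 and 559.9 in normoxia and 547, 586 and 598 in hypoxia, so the groups overlapped. Its 95% confidence interval ran from -0.10 to 0.27 (limma adjusted p = 0.504). The probe set 218388_at, at 501 ± 21.9 and 536 ± 13.1, had an interval of -0.08 to 0.27, and its groups were apart by a narrow margin, the highest normoxia array being at 516 and the lowest hypoxia array at 527. The 2 dimmer probe sets, 1554316_at and 230699_at, had log2 changes of 0.03 and 0.08 and overlapping groups.

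PGD encodes 6-phosphogluconate dehydrogenase, which yields the second NADPH and ribulose 5-phosphate. The probe set 201118_at, the only one of PGD above the median, was at 1362, 1610.2 and 1582 in normoxia and at 1365, 1334 and 1286 in hypoxia. The groups overlapped through the lowest normoxia array, and the means of 1518 ± 136 and 1328 ± 39.8 gave a log2 change of -0.19 (95% confidence interval -0.41 to 0.03, limma adjusted p = 0.187). The probe sets 1560943_s_at and 1560942_at were below the median on all arrays, with log2 changes of -0.01 and 0.01.

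The promoter of PGD is shown because it held the most matches, among the members, to the core letters of the hypoxia response element, the DNA word that hypoxia-inducible factors bind. The letters searched were ACGTG and GCGTG on both strands, in the 250 bases before and 50 after each gene start listed by RefSeq (GRCh38.p14). Of all 35116 such windows 48.4% held at least 1 match (21.4% ACGTG, 36.5% GCGTG), and 7.26% held CACGTG, the 6 letters of an E-box that contain ACGTG. All 8 members had an entry, TKTL1 having 2 starts, and matches stood in the windows of PGD and RPIA, none of them within CACGTG. In PGD they began 232, 145 and 44 bases before the gene start, at chr1:10398814-10399113 on the plus strand. Capitals mark the matches, and CACGT is ACGTG read on the opposite strand.
PGD: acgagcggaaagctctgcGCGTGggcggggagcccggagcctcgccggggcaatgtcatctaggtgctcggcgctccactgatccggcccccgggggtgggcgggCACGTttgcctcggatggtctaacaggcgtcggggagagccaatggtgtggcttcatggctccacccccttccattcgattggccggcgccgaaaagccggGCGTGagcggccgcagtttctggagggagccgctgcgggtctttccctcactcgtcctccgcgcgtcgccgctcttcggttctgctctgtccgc

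RPIA, in the non-oxidative branch, had the largest change of all members. It encodes ribose 5-phosphate isomerase, which turns ribulose 5-phosphate into the ribose 5-phosphate of nucleotide synthesis. Its single probe set, 212973_at, was at 2008, 1939 and 2076 on the normoxia arrays and at 541, 614 and 555 on the hypoxia arrays. The groups lay far apart, with means of 2008 ± 68.1 and 570.2 ± 38.7, so that normoxia was 3.52-fold above hypoxia. The log2 change was -1.79 (95% confidence interval -1.98 to -1.60, limma adjusted p = 6.47e-05), and 325 of the 54613 probe sets in the table had a larger fall. A gene with 1 probe set offers no second reading of the change.

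The window of RPIA is printed as that of the member with the largest fall. It lies at chr2:88691423-88691722 on the plus strand, and its 1 match, in capitals, is GCGTG on the opposite strand (CACGC as printed), beginning 57 bases before the gene start.
RPIA: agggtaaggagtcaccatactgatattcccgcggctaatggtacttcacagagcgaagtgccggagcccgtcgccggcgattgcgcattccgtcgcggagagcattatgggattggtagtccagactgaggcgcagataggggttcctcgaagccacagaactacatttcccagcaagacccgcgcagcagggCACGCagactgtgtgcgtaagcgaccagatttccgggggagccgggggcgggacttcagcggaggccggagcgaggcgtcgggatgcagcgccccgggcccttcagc

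Other genes were ranked by how closely their values followed those of RPIA. Among 22309 probe sets above the median level, those with the highest Pearson correlation to RPIA over the 6 arrays were PLS1, SLC25A32 and EIF3J, at correlations of 0.99995, 0.99992 and 0.99986. PLS1 encodes an actin-bundling protein, SLC25A32 a mitochondrial carrier of folate and EIF3J a translation initiation factor, and they fell by 2.32, 1.26 and 0.76 on the log2(intensity + 16) scale. With 6 arrays in separate groups such likeness is common: 4989 of these probe sets had a correlation above 0.95.

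RPE encodes the epimerase that turns ribulose 5-phosphate into xylulose 5-phosphate, the other pentose that transketolase needs. Its 3 probe sets above the median were lower on every hypoxia array than on every normoxia array, but by unequal amounts. The brightest, 225040_s_at, was at 1870.4, 2002 and 1857 in normoxia and 1578, 1681 and 1616 in hypoxia, with a log2 change of -0.23 (95% confidence interval -0.40 to -0.06) and a limma adjusted p of 0.0556. It did not pass here, although it passed with a pseudocount of 64, median centring, dim probe sets left out or an intensity trend (limma adjusted p = 0.00545 to 0.0288). The probe set 221770_at fell from 1021 ± 82.2 to 691 ± 56.4 (log2 change -0.55, limma adjusted p = 0.00732) and 225039_at from 948 ± 34.3 to 724 ± 40.1 (-0.38, limma adjusted p = 0.0108). The fourth, 1558519_at, was dim, at 10.3 ± 4.36 and 14.6 ± 12.4, and did not pass. Averaged over its 4 probe sets, RPE was at -0.25 and did not pass (limma adjusted p = 0.109 over genes). With its brightest probe set as the 1 value of the gene, RPE passed (limma adjusted p = 0.0288 over genes). A further probe set annotated to both RPE and RPEL1, and so no member, fell from 220.0 ± 24.0 to 148 ± 20.5.

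TKT was the member with the largest rise. It encodes transketolase, the thiamine-dependent enzyme that moves units of a pair of carbons between sugar phosphates and links the pathway to fructose 6-phosphate and glyceraldehyde 3-phosphate. The probe set 208700_s_at was at 2944, 2840.4 and 3088 in normoxia and at 4904, 5207 and 5205 in hypoxia. The lowest hypoxia array was well above the highest normoxia array, and the means of 2958 ± 124 and 5105 ± 174 were 1.73-fold apart (log2 change 0.78 with a 95% confidence interval of 0.61 to 0.96, limma adjusted p = 0.000498). The probe set 208699_x_at read 2054, 1975 and 2009 in normoxia and 3283, 3301 and 3239.6 in hypoxia, a log2 change of 0.70 (limma adjusted p = 0.000489). The dimmest, 228205_at, rose from 77.6 ± 11.98 to 114 ± 6.48 (0.48, limma adjusted p = 0.0195). That last call was lost without normoxia replicate 0 or 1 or hypoxia replicate 1 or 2 (limma adjusted p = 0.0558 to 0.0706), while the probe sets 208700_s_at and 208699_x_at passed in all 13 alternatives each. In the naming of these arrays the ending x_at marks probe sets whose probes can also match other transcripts.

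The window of TKT is printed as that of the member with the largest rise. It lies at chr3:53255973-53256272 on the minus strand, has 70.7% G and C, and holds none of the letters searched.
TKT: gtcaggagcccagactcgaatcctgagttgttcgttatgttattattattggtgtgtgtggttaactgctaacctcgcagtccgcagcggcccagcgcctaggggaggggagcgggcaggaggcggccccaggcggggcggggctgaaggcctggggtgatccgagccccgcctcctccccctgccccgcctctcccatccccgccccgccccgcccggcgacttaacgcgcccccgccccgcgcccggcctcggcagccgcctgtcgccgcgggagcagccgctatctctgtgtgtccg

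TKTL1, a paralogue of transketolase with a limited tissue range, did not pass. Its probe set 214183_s_at was at 225, 180.0 and 182 in normoxia and 244, 230.3 and 213 in hypoxia, with overlap through 1 normoxia array (log2 change 0.22 with a 95% confidence interval of -0.05 to 0.48, limma adjusted p = 0.205). The probe set 216370_s_at was at 110.5 ± 2.21 and 126 ± 11.3 (0.17, interval -0.04 to 0.37). TALDO1 encodes transaldolase, which moves units of 3 carbons. Its single probe set, 201463_s_at, was at 6945, 7107 and 7268 in normoxia and 5916, 6328 and 6253 in hypoxia. The groups did not overlap, but the log2 change of -0.20 (95% confidence interval -0.37 to -0.04) did not pass over all probe sets (limma adjusted p = 0.0707). Among the alternatives run on probe sets, it passed in the same 4 as the brightest probe set of RPE (limma adjusted p = 0.00257 to 0.0272). TALDO1 also passed in both readings with 1 value per gene (limma adjusted p = 0.0354 and 0.0402 over genes).

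**Figure D2:**
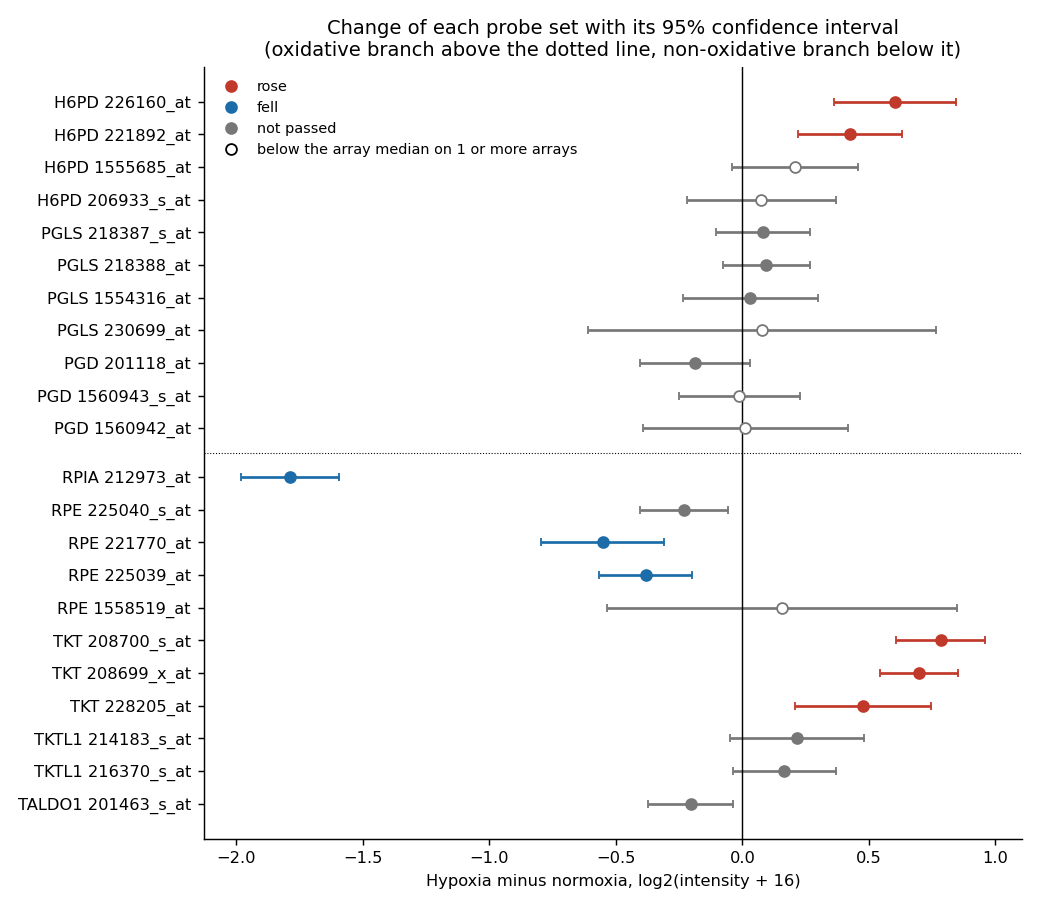
The difference hypoxia minus normoxia, in log2(intensity + 16), for each of the 22 probe sets, with bars for the 95% confidence interval, red for a rise, blue for a fall and grey for probe sets that did not pass; open circles were below the median on at least 1 array. The oxidative probe sets run from -0.19 to 0.60 and the non-oxidative ones from -1.79 to 0.78.

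With each gene read by its brightest probe set, the oxidative changes ran from -0.19 (PGD) to 0.60 (H6PD), a range of 0.79 over 3 genes, and the non-oxidative ones from -1.79 (RPIA) to 0.78 (TKT), a range of 2.57 over 5 genes. Without RPIA, a member left out after its values were seen, the latter range was 1.01. Of the 11 oxidative probe sets 2 rose and 0 fell in limma at an adjusted p of 0.05, and 2 had an unadjusted p under 0.05. Of the 11 non-oxidative ones 3 rose and 3 fell, and 8 had an unadjusted p under 0.05, against 39.0% of all probe sets. The branches differed in brightness, and among probe sets above the median on all arrays 2 of 6 oxidative and 6 of 10 non-oxidative ones passed, beside 53.1% of all such probe sets. The order of the branch medians depended on the probe sets taken. Over all probe sets the median log2 change was 0.08 in the oxidative and 0.16 in the non-oxidative branch, the latter being the value of the dim RPE probe set 1558519_at, against 0.02 over the whole table. Over those above the median it was 0.09 and -0.02, and by the brightest probe set of each gene 0.08 and -0.20.

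The mean change per gene was 0.17 in the oxidative and -0.24 in the non-oxidative branch, a difference of 0.41. By array, the oxidative minus the non-oxidative mean, each gene taken from its own normoxia mean, was -0.02, -0.01 and 0.02 in normoxia and 0.46, 0.35 and 0.42 in hypoxia. All hypoxia arrays were thus above all normoxia arrays. The members were chosen with results of these data known, so no p is given for this difference. It rests on RPIA: without RPIA, left out after its values were seen, the branches differed by 0.02, and without H6PD by 0.19.

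**Figure D3:**
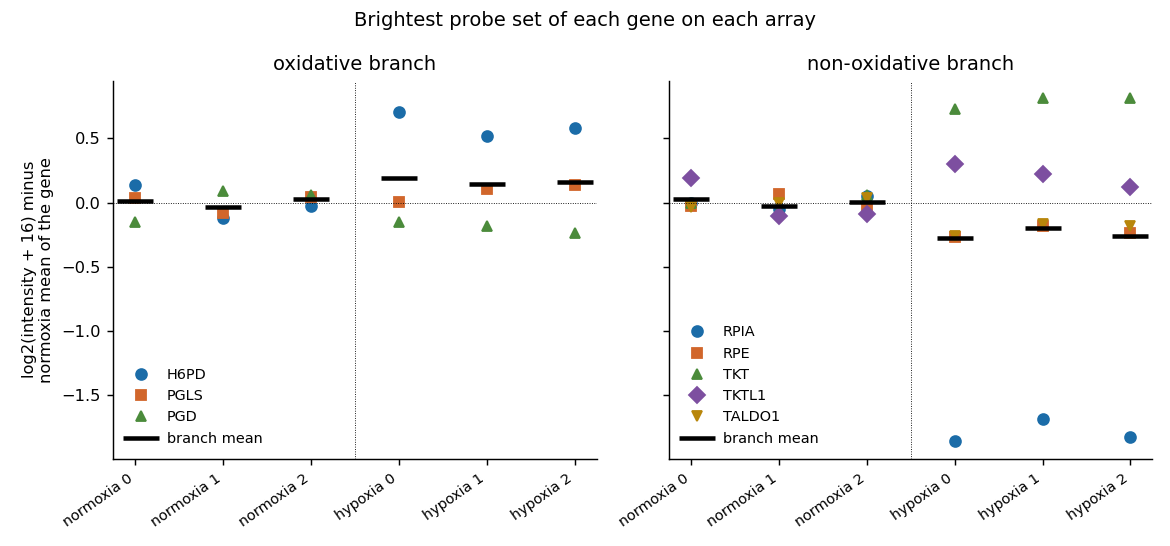
Each point is the brightest probe set of 1 gene on 1 array, as log2(intensity + 16) minus the normoxia mean of that gene, with black bars at the branch mean. In hypoxia the oxidative mean lies at 0.15 to 0.19 and the non-oxidative mean at -0.27 to -0.20, with RPIA far below the other members of its branch.

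Within arrays, the transcript of PGD was set against those of the enzymes that transfer carbon units in the non-oxidative branch. The log2 value of PGD minus that of TKT was -0.96 ± 0.15 in normoxia and -1.93 ± 0.09 in hypoxia (SD, n = 3), a difference between the conditions of -0.97 (exact two-sided permutation test, p = 0.1, the smallest that 3 against 3 arrays allow, and 0.2 adjusted over 2 pairs). The level of 1 probe set against another carries no meaning by itself, but its shift does: all 3 hypoxia arrays were lower. The shift combines the log2 changes of TKT (0.78) and PGD (-0.19). Members were chosen with results of these data known, so the p-values of these pairs give no separate support. PGD minus TALDO1 was -2.22 ± 0.11 in normoxia and -2.20 ± 0.09 in hypoxia, a difference of 0.02 with overlapping groups (exact two-sided permutation test, p = 0.9).

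A list of related genes covered the use of ribose 5-phosphate and the handling of pentoses outside the main pathway. It also held genes of neighbouring reactions, among them TIGAR, SHPK and PGM1, whose enzymes do not act mainly on pentoses. Of its 15 genes measured, each by its brightest probe set, 2 rose, 5 fell and 8 did not pass, with a median log2 change of -0.06. Over all 19775 genes read this way 34.6% passed, 15.6% upward and 19.1% downward, with a median of -0.00016. The 7 calls were all among the 12 genes of the list above the median on all arrays, where 54.0% of all genes passed. TIGAR, a phosphatase of fructose 2,6-bisphosphate that favours flow into the pathway, was at 1252, 1143 and 1111 in normoxia and at 381, 373 and 358 in hypoxia. It fell by 1.61 on the log2 scale (95% confidence interval -1.80 to -1.42) at a limma adjusted p of 7.44e-05. SHPK, the sedoheptulose kinase, fell from 477 ± 13.9 to 257 ± 12.9, and DERA, the deoxyribose-phosphate aldolase, from 2854 ± 63.7 to 1647 ± 85.2. PGM1, which interconverts glucose 1-phosphate and glucose 6-phosphate, rose from 2413 ± 67.6 to 4025 ± 208. PRPS1L1, a paralogue of PRPP synthetase, was dim and had the largest adjusted p (log2 change -0.06, limma adjusted p = 0.893).

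The other calls of that list, named after their values were seen, were PRPS1, PRPS2 and PRPSAP1. PRPS1 and PRPS2 encode PRPP synthetases, which activate ribose 5-phosphate for nucleotide synthesis. PRPS1 fell by 0.75 and PRPS2 by 0.47 on the log2 scale, both without overlap between the groups. PRPSAP1, an associated protein of these synthetases, rose by 0.29. RPEL1 was not analysed here.

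A list of other NADPH-making enzymes and NAD kinases included some, such as ME2, MTHFD2 and GLUD1, that also or mainly use NAD. Of its 14 genes 8 fell, 1 rose and 5 did not pass, with a median log2 change of -0.29. All 14 lay above the median on all arrays, where 54.0% of all genes passed in either direction. Of all probe sets at such levels 27.3% fell and 25.8% rose. ALDH1L2, a mitochondrial folate enzyme that makes NADPH, fell from 2233 ± 35.7 to 779.6 ± 25.3. MTHFD1, the cytosolic trifunctional folate enzyme, fell from 2652 ± 45.1 to 1062 ± 19.4 (log2 change -1.31, limma adjusted p = 7.87e-05). Its other, dim probe set rose from 26.2 ± 3.80 to 81.2 ± 4.59, so averaged over both MTHFD1 was at -0.05 and did not pass. MTHFD2L, a mitochondrial relative, fell by 0.62 and ME2, a mitochondrial malic enzyme, by 0.56. NNT, the transhydrogenase of the inner mitochondrial membrane, had the largest adjusted p (log2 change 0.01, limma adjusted p = 0.976), but another of its 4 probe sets fell, and averaged over all of them NNT fell by 0.31 (limma adjusted p = 0.0203 over genes). The rise, named after its value was seen, was that of the mitochondrial isocitrate dehydrogenase gene IDH2 (0.37), while that of the cytosolic enzyme, IDH1, fell by 0.63.

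Glycolytic genes that share intermediates with the pathway rose in 8 of 10 cases and fell in 0 (limma, adjusted p of 0.05). Their median log2 change was 0.43. All 10 lay above the median on all arrays, where 54.0% of all genes passed in either direction. Of all probe sets at such levels 25.8% rose and 27.3% fell. ALDOC rose by 2.76, GPI, the isomerase at the branch point, by 1.74, HK2 by 1.06 and PFKL by 0.83, while GAPDH was at -0.03 (limma adjusted p = 0.774). The brightest probe set of HK2 rose from 2710 ± 75.0 to 5677 ± 137. Both dimmer ones fell, from 121 ± 3.24 to 35.7 ± 6.06 and from 96.0 ± 6.33 to 45.3 ± 4.3. In hypoxia these were below the array medians. The unweighted log2 mean over all 3 fell by 0.41, which reflects the dim probe sets and not the brightest. Over the 3 lists, 11 of 39 genes rose and 13 fell. All 24 calls were among the 36 genes above the median on all arrays, beside the same 54.0% of all genes. The number that rose was 7 without normoxia replicate 1, hypoxia replicate 1 or hypoxia replicate 2. The counts depend on the probe set taken. In 5 genes that did not pass, PGM2, RBKS, ME1, NADK and NNT, another probe set fell past the threshold. NADK2, counted as a fall, did not pass when averaged over its probe sets (log2 change -0.13, limma adjusted p = 0.362 over genes). These lists were described by their counts alone, and no difference between them and the pathway was tested.

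**Figure D4:**
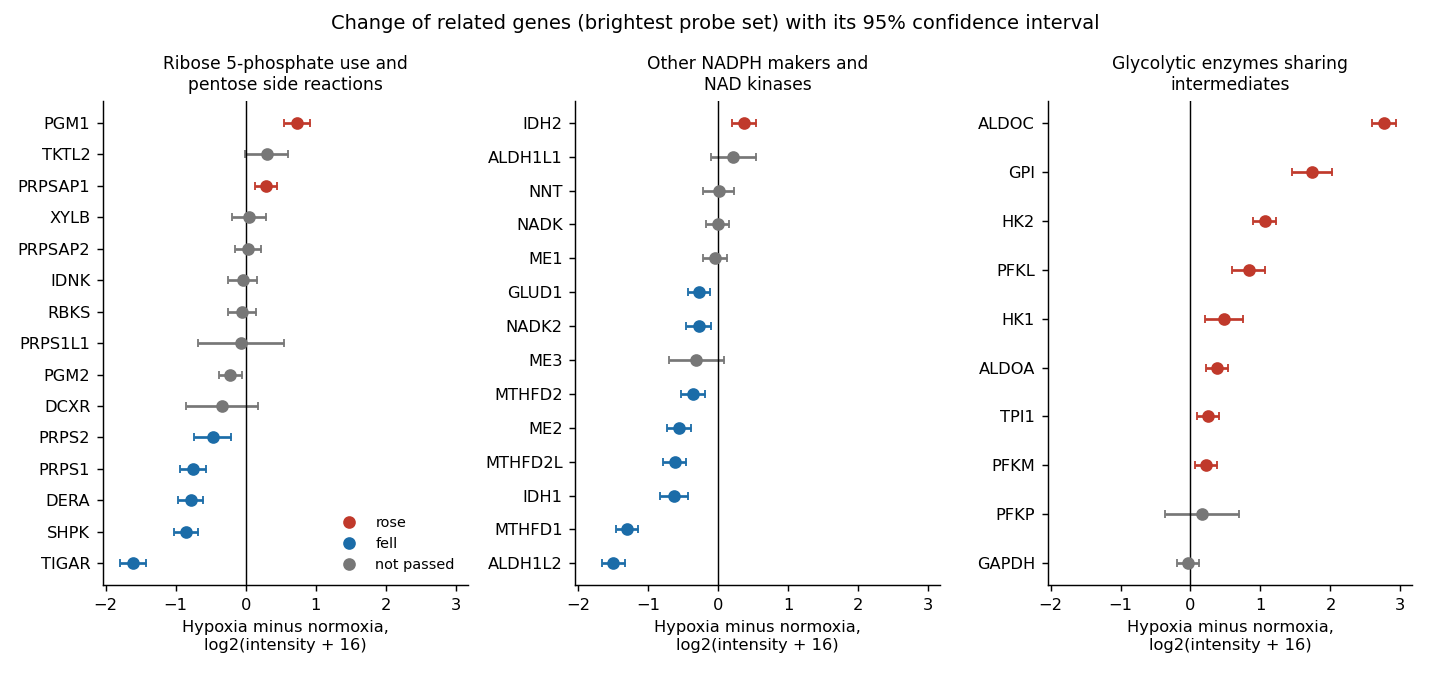
The difference hypoxia minus normoxia, in log2(intensity + 16), for the brightest probe set of each gene in the 3 lists, with bars for the 95% confidence interval, red for a rise, blue for a fall and grey for genes that did not pass. TIGAR (-1.61) lies lowest in its list and ALDH1L2 in its own, and ALDOC (2.76) and GPI (1.74) lie highest among the glycolytic genes.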

How the data were processed

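The 6 arrays of MM1S RNA, 3 per condition, were grouped by their condition label. The deposited table holds linear intensities, 1 per probe set and array; the background correction, summary and scaling by the authors are not given in the sources used here. Probe sets were named through the supplied platform annotation (1801 with several symbols, 11721 with none and 41091 with 1); of those with 1 symbol, 41037 were found in a RefSeq gene table that supplied current symbols. Between 1.07% and 1.23% of values were identical in any pair of arrays, so no array was a copy of another. Each array was counted as 1 sample, although the labels do not say that replicates came from separate cultures.

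Intensities became log2(intensity + 16) and were compared in limma 3.58.1 (R 4.3.3; lmFit, eBayes, two-sided tests, no covariates) with Benjamini-Hochberg adjustment over all 54613 probe sets, a threshold of 0.05 and 95% confidence intervals. The script was tested on simulated data. The number of arrays limits the precision. Lists and branches read each gene by its brightest probe set.

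The text names every member probe set, up to 4 genes of each related list with the smallest adjusted p and the one with the largest, genes that check the labels, and the 3 genes most like the member with the smallest adjusted p. Members and lists were chosen with earlier results of these data known. Alternatives were the pseudocount, centring, quantile normalization, a filter on dim probe sets, an intensity trend, a replicate block, 1 value per gene, and leaving out each array or a member.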

Additional observations from a re-analysis of the deposited data

How the results depend on the processing

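The calls of RPIA, of the H6PD probe sets 226160_at and 221892_at, of the TKT probe sets 208700_s_at and 208699_x_at and of the RPE probe sets 221770_at and 225039_at held in all 13 alternatives run on them. The number of member probe sets that fell went from 3 to 5 in some alternatives. These were a pseudocount of 64, median centring, dim probe sets left out (17 members kept) and an intensity trend. The background moved as well. Of all 54613 probe sets 8289 fell in the main fit. That number was 8919 with a pseudocount of 64, 9583 with median centring and 8880 with an intensity trend. With dim probe sets left out, 8371 of 27306 fell. With 1 value per gene, 2 of the 8 members rose (H6PD and TKT), and 3 fell by the brightest probe set (RPIA, RPE and TALDO1) or 2 by the mean of the probe sets (RPIA and TALDO1). Leaving out 1 array at a time gave 4 to 5 that rose and 3 that fell, and 7 to 9 related genes that rose and 10 to 12 that fell. The difference between the branches was 0.39 to 0.44 with 1 array left out, 0.53 without TKTL1, 0.19 without H6PD and 0.025 without RPIA.

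Some probe sets that had not passed changed sign. With median centring PGLS 1554316_at was at -0.034 and PGD 1560942_at at -0.053, and with quantile normalization the latter was at -0.021. With 1 array left out the ranges were -0.041 to 0.12 for PGLS 1554316_at, -0.22 to 0.28 for PGLS 230699_at, -0.090 to 0.18 for PGD 1560942_at, -0.081 to 0.065 for PGD 1560943_s_at, -0.039 to 0.14 for H6PD 206933_s_at and -0.15 to 0.32 for RPE 1558519_at.

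With a replicate block, 5 member probe sets rose and 3 fell, and of the related genes 9 rose and 14 fell. The replicate numbers were not treated as pairs, since the labels do not say that they pair arrays. Deviations of same-numbered arrays correlated at 0.214, 0.0082 and 0.192, against -0.230 to 0.0928 for arrays with different numbers. The values for replicates 0 and 2 were thus the highest of all pairs. Dim signal cannot be told from background, which limits the dimmest probe sets of H6PD, PGD and RPE.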
